A study of Mus musculus with 3 samples.

Results

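The enteric neural crest colonization genes followed here are 8 genes through which vagal neural crest cells enter, spread along and survive in the developing gut. They were taken by name as Ret, Gfra1, Ednrb and Erbb3 (receptors, with Gfra1 a co-receptor), Sox10 (a transcription factor) and Gdnf, Nrtn and Edn3 (ligands). Probes were found for 7 of them, out of 16998 genes named on the array, and Sox10 was not analysed here because no probe matched a transcript of it. The 7 genes were covered by 13 probes. Mouse embryos of the ICR strain, with no treatment, gave the RNA at E11.5, and the primordia of esophagus, stomach and intestine were each measured on 1 Cy3-labelled Agilent array. The tissue text of the samples names the 3 organs, although their extraction text speaks of stomach throughout, and neither the number of embryos nor any pooling is given.

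In the gut wall, neural crest cells carry Ret, a receptor tyrosine kinase that binds glial cell line-derived neurotrophic factor (Gdnf) through the membrane-anchored co-receptor Gfra1. They also carry Ednrb, a G protein-coupled receptor whose ligand endothelin 3 (Edn3) keeps the migrating cells in a progenitor state, and Erbb3, a neuregulin receptor that is switched on by Sox10 in crest and glial precursors. Gdnf and Edn3 are made by gut mesenchyme, and loss of several of these genes leaves the distal bowel without ganglia in mice and, in people, in Hirschsprung disease. The comparison asked where along the E11.5 gut the receptors and the ligands were high.

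With a single array for an organ, no difference below has a replicate check and no test between organs could be run. Precision is limited by having 3 arrays in all. A level is log2 of the processed signal minus the 75th percentile of its array, and a gene was counted as different where organs were at least 2-fold apart. The share of spots well above background ranged from 67.9% to 74.0% over the arrays. The 75th percentile of the signal was 393 for esophagus, 334 for stomach and 1023 for intestine. The spike-in RNA stood 2.65 log2 units above the 75th percentile there against 3.62 in esophagus and 3.66 in stomach. The organ labels were checked on gut mesenchyme genes. Barx1, a homeobox gene of stomach mesenchyme, read 717 for esophagus, 7212 for stomach and 48.7 for intestine, and Nkx2-3, a homeobox gene of midgut mesenchyme, read 26.6, 184 and 7850. All 6 heart markers were at least 4-fold above stomach in esophagus, and their levels summed to 87.5 times the 75th percentile in esophagus, 2.47 in stomach and 1.19 in intestine. All 6 liver markers were higher in intestine than in the other organs, with sums of 9.65, 3.18 and 60.7 in the same order, and the transthyretin gene Ttr among them was not well above background in esophagus and stomach. The part of heart and liver tissue in the results below was not tested. In whole organs, fewer cells of a type and less RNA per cell cannot be told apart.

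Set against the esophagus, the stomach had more Ret and Gdnf and less Ednrb. The intestine had more Gdnf and Edn3 than the esophagus and less Gfra1, Ednrb and Erbb3. By their brightest probes and on this scale, the receptors were thus highest in esophagus or stomach, and 2 of the 3 ligands were highest in intestine. In stomach against esophagus 2 of 7 genes (28.6%) were at least 2-fold higher, beside 4.14% of 13740 genes, and 1 of 7 (14.3%) was at least 2-fold lower, beside 5.71%. In intestine against esophagus 2 of 7 were higher, beside 8.4% of 14462 genes, and 3 of 7 (42.9%) were lower, beside 11.5%. In intestine against stomach 1 of 7 was higher, beside 4.77% of 14384 genes, and 3 of 7 were lower, beside 7.18%. At a 4-fold limit none of the 7 genes was higher or lower in stomach against esophagus, beside 0.684% and 1.58% of all genes. Gdnf was higher and Erbb3 lower in intestine against esophagus at that limit, beside 1.75% and 3.7%, and Edn3 was higher and Erbb3 lower in intestine against stomach, beside 1.38% and 1.24%. These comparisons share arrays, so they are not separate pieces of evidence, and with 7 genes each count rests on few values. The median difference of genes measured on both arrays was 0.15, 0.12 and −0.04 log2 units in the 3 comparisons, against 0.40, 0.15 and −0.40 for the 7 genes.

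**Figure D1:**
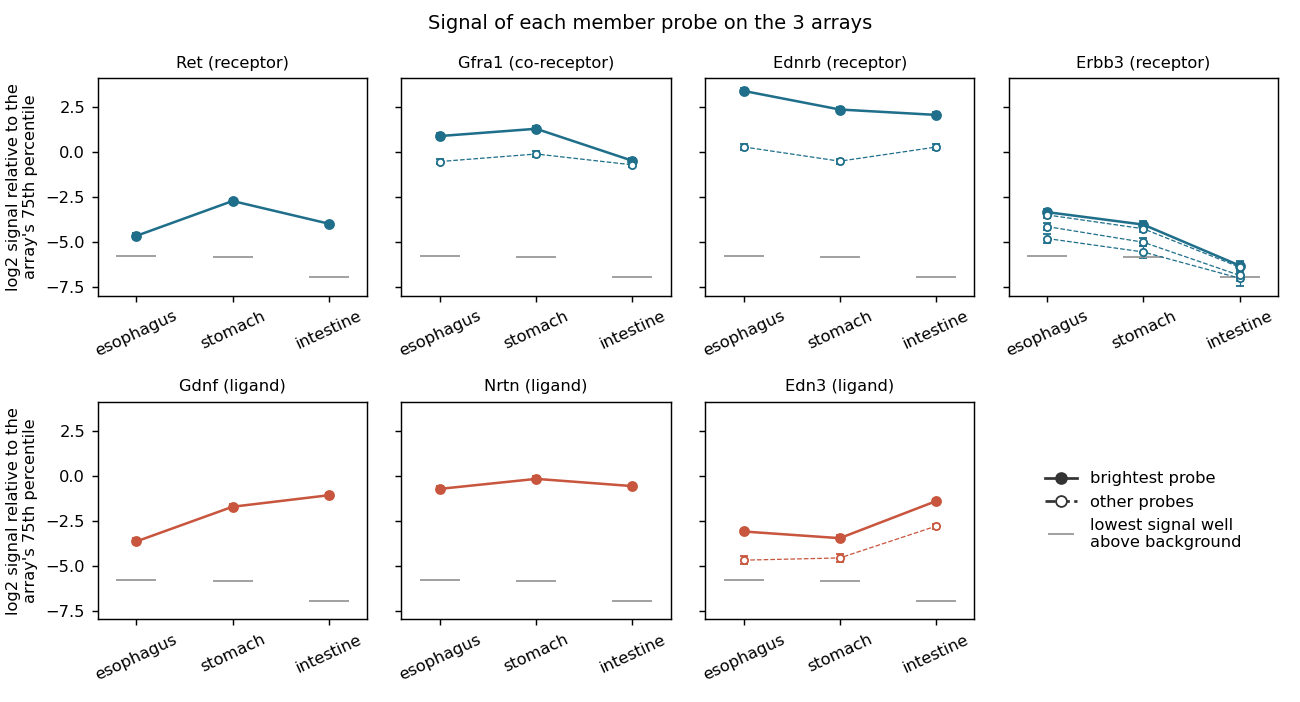
Signal of the 7 genes on each array, on a log2 scale relative to the array's 75th percentile. Filled points with solid lines are the brightest probe, open points with dashed lines the other probes of a gene, error bars the SD over spots for Ret and the scanner software's error for the other genes, and grey dashes the lowest signal well above background on that array; Ret peaks in stomach, Erbb3 is 1.57-fold above the grey mark in intestine, and Gdnf and Edn3 are highest in intestine.

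Ret was dim but was the most closely measured of the genes, because its probe was printed 10 times on every array. Its signal was 15.5 for esophagus, 50.5 for stomach and 64.4 for intestine, and the levels relative to the 75th percentile were −4.67 ± 0.17 (SD over 9 spots), −2.73 ± 0.13 (SD over 10 spots) and −3.99 ± 0.083 (SD over 10 spots). Before scaling, the single spots ran from 13.4 to 18.6 in esophagus, from 45.5 to 57.2 in stomach and from 59.7 to 68.6 in intestine. The arrays differ in scale, so these ranges do not rank the organs. Spots of an array share 1 RNA sample, and their spread says nothing of the spread between embryos. After scaling, Ret was highest in stomach, 3.83-fold above esophagus, and intestine was −1.26 log2 units from stomach. Intestine and stomach were within 2-fold under quantile normalization (−0.98), scaling to the array median (−0.96) and spike-in scaling (−0.26). The intestine lay 0.68 log2 units above the esophagus, which is within 2-fold, but 1.20 and 1.18 with quantile normalization and the array median. With normexp correction that last order turned, at −0.53. This setting added an offset of 50 to every signal, before scaling to 75th percentiles of 393 in esophagus and 1023 in intestine. The part of the offset in the turn was not tested. In esophagus the signal was 2.20 times the lowest that counted as well above background, and with normexp, which shrinks dim signals, the stomach was 0.73 log2 units above esophagus rather than 1.94.

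Gfra1, which presents Gdnf to Ret, was bright in every organ. Its brighter probe stood at 0.88 ± 0.14 for esophagus, 1.29 ± 0.14 for stomach and −0.49 ± 0.14 for intestine, where the error is that of the scanner software for a single spot. The stomach was 1.32-fold above esophagus. The intestine was 2.59-fold below esophagus and 3.43-fold below stomach. The second Gfra1 probe followed the first between stomach and esophagus (0.42 against 0.40 log2 units) but differed for the intestine, where it gave −0.18 against esophagus and −0.60 against stomach. Both probes put Gfra1 lowest in intestine, and only the brighter one put it more than 2-fold lower. With the array median, spike-in scaling or the mean over probes, neither Gfra1 nor Ednrb was 2-fold lower in intestine than in esophagus.

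Ednrb was far above background in every organ, with levels of 3.39 ± 0.14 for esophagus, 2.36 ± 0.14 for stomach and 2.06 ± 0.14 for intestine by its brighter probe. The esophagus was 2.05-fold above stomach and 2.52-fold above intestine. The second probe gave 0.28, −0.51 and 0.27, so that stomach was lowest and esophagus and intestine lay within 0.01 log2 units of each other. Lower Ednrb in stomach than in esophagus was thus shared by both probes (−1.03 and −0.79), whereas its place in intestine depended on the probe, by 1.33 log2 units. Over genes with several measured probes, the median SD between probes was 0.25 log2 units between stomach and esophagus. It was 0.46 between intestine and esophagus and 0.31 between intestine and stomach. An SD between probes is smaller than their gap and cannot be set directly against it. For stomach against esophagus the probes of Gfra1 differed by 0.014 and those of Ednrb by 0.24 log2 units, so the wide gaps were in the comparisons with intestine. The heart markers, high in esophagus, moved the same way as Ednrb, and 4 of the 6 were at least 2-fold above intestine in stomach. Of 7 smooth muscle markers, 5 were at least 2-fold lower in stomach than in esophagus and 4 in intestine, with summed levels of 149, 71.9 and 65.5 in esophagus, stomach and intestine. The 6 endothelial markers, of which 1 was at least 2-fold lower in stomach than in esophagus and none in intestine, had median differences of −0.41 and 0.24. The part of these cells in the Ednrb values was not tested. All-gene shares lower were 5.71% in stomach and 11.5% in intestine, each against esophagus, and 7.18% in intestine against stomach.

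Erbb3, the neuregulin receptor, was highest in esophagus and lowest in intestine. Its brightest probe stood at −3.35 ± 0.16 for esophagus, −4.04 ± 0.18 for stomach and −6.32 ± 0.26 for intestine. The intestine was 7.83-fold below esophagus and 4.85-fold below stomach, and the stomach was 1.62-fold below esophagus. The 3 Erbb3 probes that were well above background on every array gave the same order, with −0.87 to −0.69 log2 units between stomach and esophagus, −2.97 to −2.71 between intestine and esophagus and −2.28 to −1.84 between intestine and stomach. The probes were dim, and the brightest lay only 1.57-fold above the lowest signal well above background in intestine. The faintest of the 4 was not well above background in stomach or intestine and is left out of these ranges. With normexp correction the brightest probe gave −1.64 log2 units for intestine against esophagus and −1.50 against stomach, both within 4-fold. Stomach against esophagus was then −0.14.

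Gdnf, the main Ret ligand of the early gut, was lowest in esophagus and highest in intestine. Its 1 probe gave signals of 31.2 for esophagus, 101 for stomach and 481 for intestine, and levels of −3.66 ± 0.17, −1.73 ± 0.15 and −1.09 ± 0.14. Stomach stood 3.81-fold and intestine 5.93-fold above esophagus. Between intestine and stomach the difference was 1.56-fold, within the 2-fold limit. Among all genes, 0.75% were raised more than Gdnf in stomach against esophagus and 1.02% in intestine against esophagus. Gdnf and Ret thus differed by almost the same amount between stomach and esophagus (1.93 and 1.94 log2 units). With normexp correction these differences were 1.13 and 0.73. Between intestine and stomach Gdnf and Ret stood at 0.64 and −1.26. With normexp correction Gdnf was at 1.36 in intestine against esophagus, within 4-fold, and at 0.23 in intestine against stomach.

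Nrtn, a second Ret ligand that acts mainly through Gfra2, varied little. Its levels were −0.74 ± 0.14 for esophagus, −0.18 ± 0.14 for stomach and −0.58 ± 0.14 for intestine. The largest difference was 1.47-fold, between stomach and esophagus, and no pair of organs was 2-fold apart. Gfra2 was above background in esophagus, at a signal of 24.0, and not well above background in stomach and intestine.

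Edn3 was highest in intestine. Its brighter probe stood at −3.10 ± 0.15 for esophagus, −3.48 ± 0.16 for stomach and −1.42 ± 0.14 for intestine. The esophagus and stomach were thus close together, with the intestine above both. The intestine was 3.22-fold above esophagus and 4.16-fold above stomach. The second probe gave 3.71-fold and 3.40-fold. With normexp correction the intestine was 0.88 log2 units above esophagus and 0.88 above stomach, both within 2-fold. Of all genes, 1.25% were raised more than Edn3 in intestine against stomach. For stomach against esophagus the probes fell on either side of 0, at −0.37 and 0.12 log2 units. Beside Gdnf and Edn3, the summed level of 10 gut mesenchyme markers was 134 for esophagus, 111 for stomach and 95.1 for intestine, but their median level was 1.64, 1.64 and 2.06 log2 units in the same order. The sum was weighted by the collagen gene Col1a1, whose difference was −1.43 in stomach and −1.66 in intestine against esophagus. The liver markers were highest in the same organ as both ligands.

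**Figure D2:**
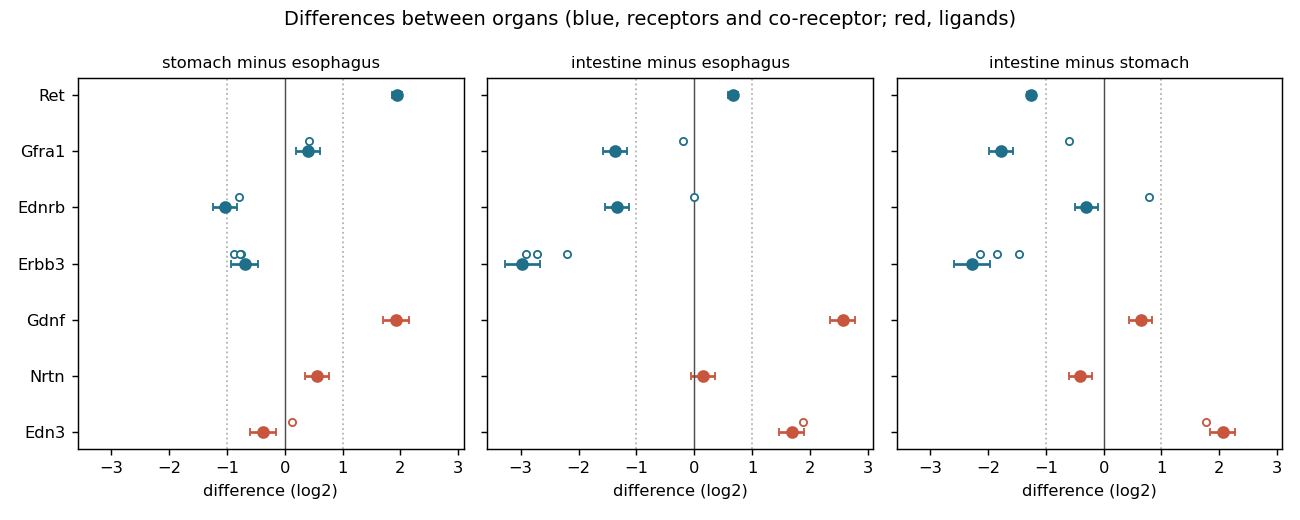
Differences between organs in log2 units for each gene, 1 panel per comparison. Filled points are the brightest probe with the combined scanner error as bars, open points the other probes, and dotted lines mark 2-fold; Gdnf and Edn3 lie to the right of the line in intestine against esophagus, while Gfra1, Ednrb and Erbb3 lie to the left by their brightest probes.

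Receptor and ligand were then set side by side as differences of differences, which do not depend on how the arrays were scaled. From esophagus to intestine Gdnf gained 1.89 log2 units on Ret (3.71-fold), and from stomach to intestine 1.90 (3.74-fold). From esophagus to stomach the gap was −0.01, and 0.40 after normexp correction. Against Gfra1, Gdnf gained 3.94 log2 units from esophagus to intestine by the brightest probes and 2.75 by the other Gfra1 probe. Edn3 gained 3.02 log2 units on Ednrb from esophagus to intestine, with 1.69 to 3.22 over all pairs of probes, and 2.36 from stomach to intestine, with 0.98 to 2.36. Every pair of probes therefore had the ligand gaining on its receptor in intestine, for Gdnf with Ret, Gdnf with Gfra1 and Edn3 with Ednrb. After normexp correction the gains from esophagus to intestine were 1.89 for Gdnf on Ret, 2.55 for Gdnf on Gfra1 and 2.09 for Edn3 on Ednrb. Between Nrtn and Ret the difference from esophagus to intestine was −0.52, and 0.69 after normexp correction, so it had no settled sign. A gain of this kind shows unequal change and not which gene of the pair changed. Among the receptors, Ret gained 2.97 log2 units on Ednrb and 2.63 on Erbb3 from esophagus to stomach. After normexp correction these gains were 1.79 and 0.87, the latter within 2-fold.

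The sequences just before the transcription starts of these ligands and receptors are shown because Gdnf and Edn3 were highest, and Gfra1 and Ednrb by their brightest probes lowest, in the same organ. Each is the 250 bases before a start in RefSeq (GRCm38.p6), read 5′ to 3′ on the strand of the gene, and entries were found for Gfra1, Ednrb, Gdnf, Nrtn and Edn3. Capitals mark matches to CANNTG, the E-box read by basic helix-loop-helix factors such as Hand2, searched on both strands.
Gdnf chr15:7809798-7810047 (plus strand): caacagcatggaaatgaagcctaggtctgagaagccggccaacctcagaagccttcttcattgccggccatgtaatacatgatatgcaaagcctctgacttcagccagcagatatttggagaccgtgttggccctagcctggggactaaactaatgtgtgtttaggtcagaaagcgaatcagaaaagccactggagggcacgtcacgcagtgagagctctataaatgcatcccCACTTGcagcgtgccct
Edn3 chr2:174760369-174760618 (plus strand): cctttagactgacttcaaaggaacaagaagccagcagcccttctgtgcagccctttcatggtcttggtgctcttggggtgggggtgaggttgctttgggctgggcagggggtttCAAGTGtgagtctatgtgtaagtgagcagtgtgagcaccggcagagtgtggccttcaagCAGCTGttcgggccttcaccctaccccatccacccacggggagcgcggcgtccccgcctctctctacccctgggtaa
Gfra1 chr19:58455399-58455648 (minus strand): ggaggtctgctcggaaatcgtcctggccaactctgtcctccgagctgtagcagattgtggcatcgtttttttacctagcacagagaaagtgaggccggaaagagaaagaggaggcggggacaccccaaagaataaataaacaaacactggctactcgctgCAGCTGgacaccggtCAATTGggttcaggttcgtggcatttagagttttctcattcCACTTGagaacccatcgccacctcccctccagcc
Ednrb chr14:103843702-103843951 (minus strand): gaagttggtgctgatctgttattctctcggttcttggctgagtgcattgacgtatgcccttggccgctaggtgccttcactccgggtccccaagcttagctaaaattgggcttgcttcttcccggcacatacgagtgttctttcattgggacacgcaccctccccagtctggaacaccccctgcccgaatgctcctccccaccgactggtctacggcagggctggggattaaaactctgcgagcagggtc
A second RefSeq start of Gdnf is not shown. The window of Gdnf held 1 E-box, that of Edn3 2, that of Gfra1 3 and that of Ednrb none, and 66.2% of all 32851 such windows held at least 1. The letters ACAATG or ACAAAG, which SOX proteins can bind, were in none of these 4 windows on either strand, beside 25.2% of all windows. The share of G and C was 50.8% for Gdnf, 59.2% for Edn3, 52.4% for Gfra1 and 56.8% for Ednrb, with a median of 52.4% over all windows. These are matches of letters in short windows and describe no binding.

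The rest of the GDNF family was mostly low or level. Of 6 other genes with probes, none was at least 2-fold higher in any comparison, beside 4.14%, 8.4% and 4.77% of all genes. With so few genes, that count says little of the family. Counting bounds, 1 of 4 tested was at least 2-fold lower in stomach against esophagus, beside 5.71%. The intestine had 2 of 6 lower against esophagus, beside 11.5%, and 1 of 5 against stomach, beside 7.18%. Gfra3, the co-receptor for artemin on sensory and sympathetic precursors, read 641 for esophagus, 583 for stomach and 151 for intestine. The intestine was 11.1-fold below esophagus and 11.8-fold below stomach. Gas1, a membrane protein related to the Gfra family, was within 2-fold in every comparison, at −0.38 log2 units for stomach minus esophagus, 0.52 for intestine minus esophagus and 0.90 for intestine minus stomach. Artn and Pspn, further family ligands, were not well above background in esophagus and stomach, with signals of 26.0 and 18.9 in intestine. Scaled, the lower bounds for intestine were 0.51 log2 units against esophagus and 0.54 against stomach for Artn. For Pspn they were 0.05 and 0.08, so neither gene was shown to be 2-fold higher.

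In the endothelin system Ednra, the receptor of smooth muscle and mesenchyme, was also highest in esophagus. It was 1.11 log2 units lower in stomach than in esophagus and 1.25 lower in intestine by its brighter probe, and −0.14 separated intestine from stomach. Its other probe gave −2.20, −4.14 and −1.95 in the same comparisons. The ligand genes differed from each other. Edn1 was 2.73-fold lower in stomach than in esophagus and 3.20-fold higher in intestine than in stomach, while Edn2 in stomach was 2.71-fold and in intestine 3.10-fold above esophagus. Ece1, which cleaves the endothelin precursors, stayed within 2-fold in all comparisons, at 0.19, 0.45 and 0.26 log2 units.

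Of the 4 other neuregulin pathway genes above background, stomach was at least 2-fold below esophagus for 2 and intestine for 1, and none was higher in any comparison. All-gene shares lower were 5.71% and 11.5%. Erbb2, the kinase partner of Erbb3, was within 2-fold throughout, at 0.31 log2 units in stomach against esophagus, 0.09 in intestine against esophagus and −0.22 in intestine against stomach. Nrg1, the neuregulin of gut mesenchyme and axons, was also within 2-fold (−0.03, 0.51 and 0.55). Nrg4 was 2.62-fold lower in stomach and 4.52-fold lower in intestine, each against esophagus. Egfr, a related receptor, was 2.37-fold lower in stomach. Nrg3 and Erbb4 were not well above background on any array.

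Transcription factors of crest cells and enteric neuroblasts were set beside the receptors. Stomach exceeded esophagus at least 2-fold for 5 of 14, beside 4.14% of all genes, and fell short of it for 2, beside 5.71%. Phox2a, a homeobox gene of autonomic neuron precursors, was 1.66 log2 units higher in stomach. Hand2, needed for enteric neurogenesis and also present in gut mesenchyme, was 1.81 higher, and Id4, an inhibitor of differentiation, 1.12. These differences have the direction of Ret (1.94) and of Gdnf. Foxd3, which maintains crest progenitors, was within 2-fold (0.49), as were Zeb2 (−0.21), Sox8 (0.35) and Tfap2a (0.60). Sox9 was 1.07 lower in stomach, and Pax3, well above background in esophagus only, was at least 3.47-fold lower in stomach.

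In intestine against stomach, 0 of 13 crest transcription factors were at least 2-fold higher, beside 4.77% of all genes. At least 2-fold lower were 2, among them Id4 (−1.76), beside 7.18%. Phox2a stood at −0.70, in the direction of Ret (−1.26), and Hand2 at 0.19. In intestine against esophagus Hand2 was at least 2-fold higher (signals of 330, 979 and 3431 over esophagus, stomach and intestine) and Sox9 3.77-fold lower, and Phox2a (0.97) and Ret (0.68) lay within 2-fold. The list of 11 crest progenitor markers, of which Ret, Ednrb and Erbb3 are members, had medians of 0.49, −0.27 and −0.75 in stomach against esophagus, intestine against esophagus and intestine against stomach. All 11 were well above background on every array, although several, such as Hand2 and Zeb2, are also expressed outside the crest. Their summed levels, which include Ednrb, were 19.4 for esophagus, 18.9 for stomach and 16.4 for intestine.

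Some markers of neurons were higher in stomach than in esophagus, as Ret was, and their part in the Ret value was not tested. Among 12 measured neuron genes, stomach was at least 2-fold above esophagus for 5, beside 4.14% of all genes, and below it for none. The other 7 were within 2-fold, with Nefl and Nefm both at −0.22. Elavl3 (1.63), Elavl4 (1.54) and Tubb3 (1.56), RNA-binding proteins and a tubulin of newborn neurons, were among the 5 higher genes, with Stmn2 (1.35) and Stmn3. In intestine against esophagus 5 of 12 were also higher, beside 8.4% of all genes. Among them were Stmn2 (1.60) and Prph (1.69), an intermediate filament of peripheral neurons. Against stomach, intestine had Prph 2.35-fold higher and Dcx 2.09-fold lower, with the other 10 within 2-fold. Dbh, which makes noradrenaline and is transient in enteric precursors, read 45.4, 146 and 678 in esophagus, stomach and intestine before scaling. Scaled, Dbh gave 1.92 (stomach against esophagus), 2.52 (intestine against esophagus) and 0.60 log2 units (intestine against stomach). Its list of 6 sympathetic and noradrenergic genes was mixed. Relative to esophagus, 3 of them passed the 2-fold limit upward in stomach, beside 4.14% of all genes, and 2 in intestine, beside 8.4%. Th, Gata2 and Gata3 stood at −0.25, −0.26 and −0.28 in stomach, and at −0.15, −0.53 and −1.24 in intestine.

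Glial and Schwann cell genes were counted likewise. In stomach against esophagus 8 of 9 were within 2-fold, including Fabp7 (0.02) and Mbp (0.28). S100b in esophagus was 2.38-fold above stomach and 14.3-fold above intestine. Cdh19, a cadherin of Schwann cell precursors, was not well above background in intestine, where the bound was −2.43 log2 units against esophagus. Sox2 was 12.5-fold higher in esophagus than in intestine, and this gene is also expressed by foregut epithelium. Erbb3 and S100b thus shared the order esophagus, stomach, intestine.

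**Figure D3:**
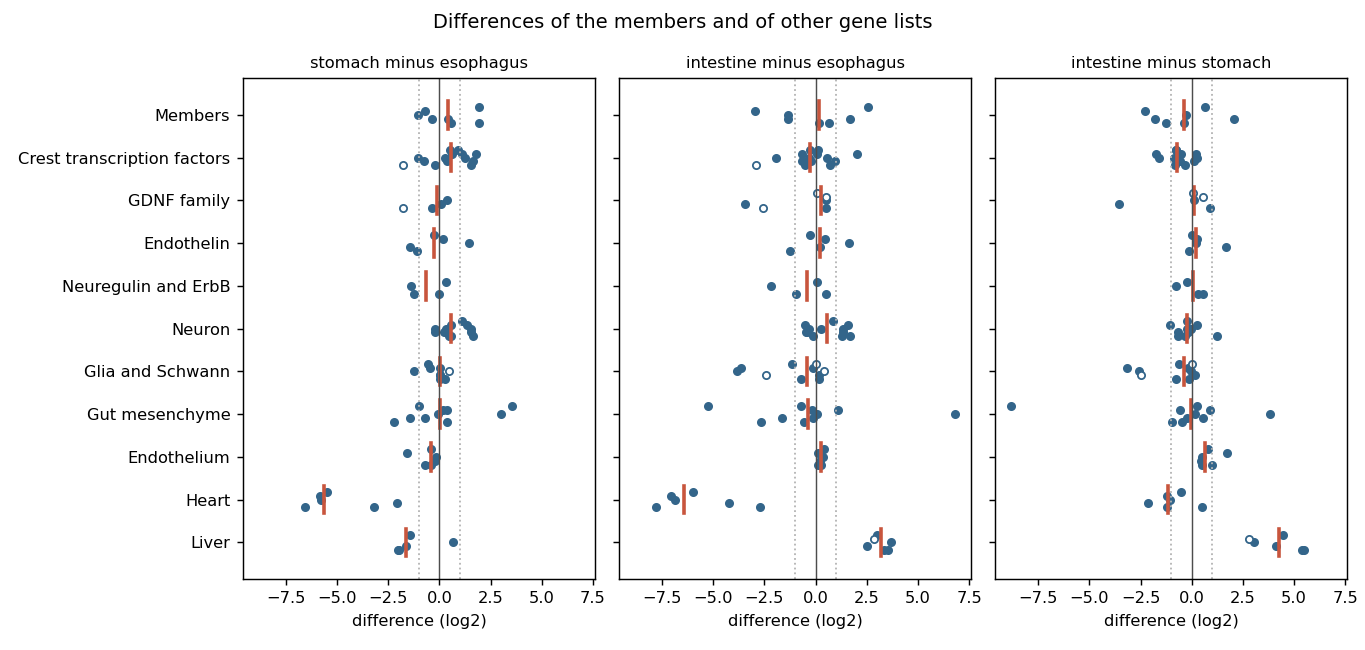
Differences in log2 units for the 7 genes and for other gene lists, 1 panel per comparison. Each point is a gene (open where 1 array was below background and the value is a bound), red bars are list medians and dotted lines mark 2-fold; the 7 genes spread to both sides, heart genes lie far to the left where esophagus is the reference, and liver genes to the right in intestine.

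Genes that guide, attract or feed the crest cells were described in the same way. In intestine against esophagus 7 of 25 were at least 2-fold higher, beside 8.4% of all genes, and 7 lower, beside 11.5%. Ihh, a hedgehog ligand of gut epithelium, was 16.9-fold higher, and Etv4, a target of receptor tyrosine kinase signalling, 4.02-fold. Aldh1a2, which makes retinoic acid, was 3.65-fold, Bmp4 2.49-fold, Kitl 2.18-fold, Ntf3 2.16-fold and Kit 2.13-fold higher. Tnc, a matrix protein, was 20.9-fold lower by its brightest probe, although another of its probes gave −1.05 log2 units. Etv5, the paralogue of Etv4, was 3.59-fold lower by its brighter probe and stood at 0.25 log2 units by the other, and Bmp2 was 2.82-fold lower. The guidance genes Sema3d, Ntn1, Sema3a and Sema3c were 8.47-fold, 3.99-fold, 2.93-fold and 2.92-fold lower by their brightest probes. The other Sema3a probe gave −0.75 log2 units, within 2-fold. Probes disagreed in sign for Kitl (−1.45 to 1.12 log2 units) and for Ntn1 (0.37 by another probe). L1cam, a cell adhesion gene linked to Hirschsprung disease, lay within 2-fold in every comparison, at 0.19, −0.14 and −0.34 log2 units.

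The genes whose levels over the 3 arrays ran closest to each member, after centring each gene on its own mean, were found among 12648 genes. With 3 arrays many genes run close to any profile, and the distances describe likeness only. Nearest to Gdnf was Dbh, at a distance of 0.036 log2 units, then Rerg and Cyp2d26. Nearest to Erbb3 was Lgr5 (0.093), nearest to Edn3 were Cst13 (0.074), Nr5a2 (0.078) and Rdh10 (0.087), and nearest to Ednrb was Bmpr2 (0.013). Ret was closest to Cyp2c37 (0.065), Bhlha9 (0.078) and Abcc8 (0.085), Gfra1 to Olfr1198 (0.050) and Dmbt1 (0.093), and Nrtn to U2af2 (0.0065).

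The scale of the intestine array mattered for each comparison that used it. Scaled to the spike-in RNA, the median of all genes in intestine against esophagus was 1.07 log2 units and in intestine against stomach 0.96, and 54.1% and 46.6% of genes were at least 2-fold higher. On that scale the differences of intestine against esophagus were 3.53 for Gdnf, 2.65 for Edn3, 1.64 for Ret, 1.12 for Nrtn, −0.37 for Ednrb, −0.41 for Gfra1 and −2.01 for Erbb3. Relative to the shift of all genes, Gdnf stood at the top and Erbb3 at the bottom as before, since scaling moves every gene alike. Stomach and esophagus had almost equal spike-in readings, and there the scale moved Ret only from 1.94 to 1.90 and Gdnf from 1.93 to 1.89.

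**Figure D4:**
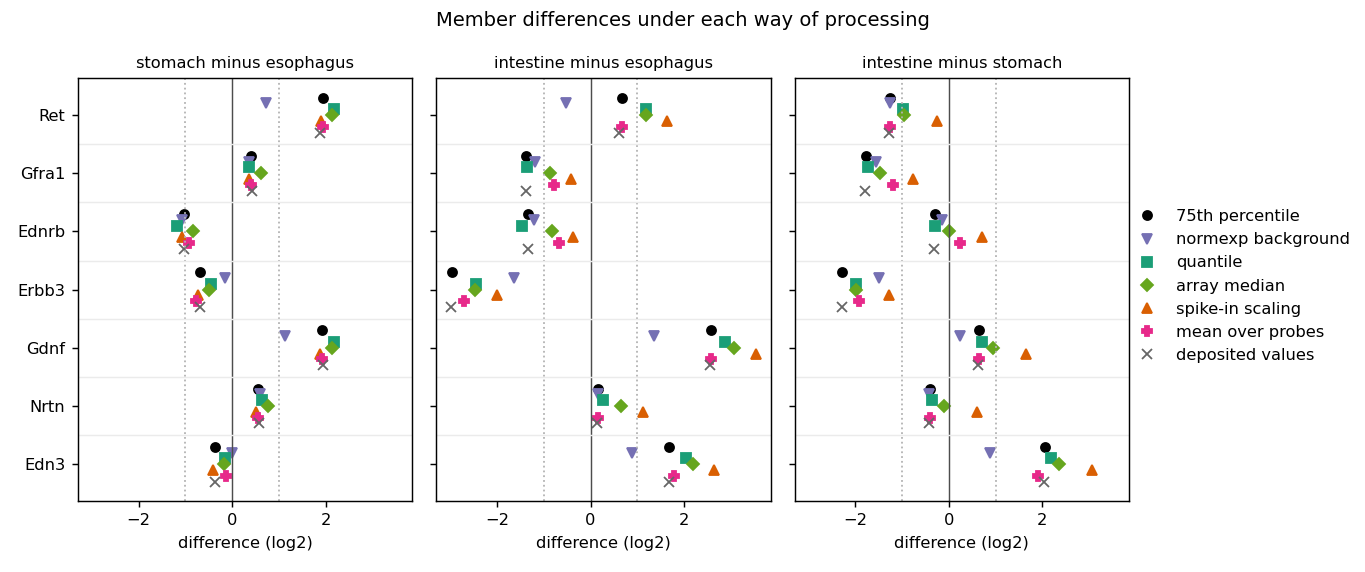
Differences of the 7 genes in log2 units under 7 ways of processing, 1 panel per comparison, with dotted lines at 2-fold. Spike-in scaling moves all genes to the right in the panels with intestine, and normexp correction draws the dim genes Ret, Erbb3, Gdnf and Edn3 toward smaller differences in stomach against esophagus.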

How the data were processed

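RNA from 3 gut primordia was measured on 1 Agilent array each. Per the file headers, the deposited intensity values were made with Agilent Feature Extraction 10.5.1.1 in a 1-colour protocol, and its processed signal was taken as given, with the background step not given in the sources used here. The deposited table of log2 values matched log2 signals after removal of 1 constant per array (99.8% to 99.9% of probes within 0.01), with medians of −2.97, −3.17 and −3.47. It was an alternative source.

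Outlier spots (70 to 111 per array) were left out, no spot was saturated, and log2 signals were averaged over a probe's spots and scaled to the array's 75th percentile. Probes were named by matching transcript accessions to a RefSeq gene table (GRCm38.p6), and 24375 of 41174 probes matched 1 symbol. Each gene used its brightest probe, and entered a comparison if well above background on either array; otherwise-dim arrays gave bounds. Normexp (offset 50) used the deposited median intensities, with limma 3.58.1 in R 4.3.3. The other alternatives were quantile normalization, scaling to the array median, to probes above background on all arrays or to spike-in RNA, no filter or a stricter one on dim probes, the mean over probes and a 4-fold limit. Steps were tested on simulated data. The genes named were the members, fixed lists of pathway and marker genes, and the 3 nearest profiles of each member. Some genes of these lists are not reported here by name. The members and lists were chosen with earlier results of these data known.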

Additional observations from a re-analysis of the deposited data

How the results depend on the processing

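Of 21 differences of the 7 genes, 17 kept their sign under every alternative, and so did all 12 that were at least 2-fold. Those that lost it were Ret in intestine against esophagus (−0.53 with normexp to 1.64 with spike-in scaling), Ednrb (−0.32 to 0.70) and Nrtn (−0.43 to 0.60) in intestine against stomach, and Edn3 in stomach against esophagus (−0.43 to 0.00103). The cause was not tested. Scaling to the array median moved the median of all genes to 0.35, 0.61 and 0.25 log2 units in the 3 comparisons. Quantile normalization gave 12.9% of genes higher and 9.31% lower in intestine against esophagus.

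In stomach against esophagus the number of genes at least 2-fold higher was 1 (Gdnf) with normexp against 2, and the number lower was 0 against 1 with the array median and with the mean over probes. In intestine against esophagus the number higher was 1 with normexp, 3 with quantile normalization and the array median (Ret added) and 4 with spike-in scaling against 2, and the number lower was 1 (Erbb3) against 3 with the array median, spike-in scaling and the mean over probes. In intestine against stomach the number higher was 0 with normexp and 2 with spike-in scaling against 1, and the number lower was 2 with quantile normalization and the array median (Ret lost) and 1 with spike-in scaling against 3. At 4-fold the counts were 0 higher and 0 lower, 1 higher (Gdnf) and 1 lower (Erbb3), and, in intestine against stomach, 1 higher (Edn3) and 1 lower (Erbb3). No paired analysis was possible because each organ has 1 array, and the slide could not be a block because all arrays lie on 1 slide. Ret and Erbb3 lie close to background, which limits their differences, and normexp took Edn3 within 2-fold in both comparisons with intestine.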
